A study of Homo sapiens with 2 samples.

Results

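The adipogenesis PCR array held 6 genes of the KLF and GATA families of zinc finger transcription factors, namely Klf2, Klf3, Klf4, Klf15, Gata2 and Gata3. They were taken by symbol from the 84 genes of the panel, and all 6 were found. By their known roles in fat cell formation, Klf4 and Klf15 were grouped as the 2 pro-adipogenic factors, and Klf2, Klf3, Gata2 and Gata3 as the 4 anti-adipogenic factors.

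Krüppel-like factors bind CACCC boxes and other GC-rich elements through zinc fingers at their C-terminal end, and GATA factors bind the sequence GATA through zinc fingers of another type. In fat cell precursors these proteins act around the master regulators of adipogenesis, PPARγ and the C/EBP proteins. KLF4 acts early and, together with the product of Egr2, switches on Cebpb. KLF15 appears later and promotes Pparg and the insulin-responsive glucose transporter GLUT4, encoded by Slc2a4. On the opposing side, KLF2 represses Pparg, KLF3 represses Cebpa, and GATA2 and GATA3 hold cells at the precursor stage by repressing Pparg and by binding C/EBP proteins. In the liver, KLF15 is known as a regulator of amino acid breakdown and glucose production.

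The cells were HepG2, a human hepatoma line used as a model of the liver, and not fat cell precursors. One sample was left untreated as the control and the other received, for 72 h, MOES, a boiled and filtered aqueous extract of *Moringa oleifera* seeds, whose dose is 5 mg/mL in the sample title and 2.5 mg/mL in the labelling protocol. With 1 sample of a single cell line per group, no difference below has a replicate check and no p-value can be given. The comparison asked whether the seed extract alters these regulators in liver cells.

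The threshold cycle (Ct) is the PCR cycle at which the signal crosses a set level, so a well that is 1 cycle later held less template by a factor of 2. A Ct of 35 is the ceiling of the tables. Late wells were common on this plate, with 25 of the 84 genes at the ceiling in treated cells. The Ct of each gene in treated cells was a whole number, so each MOES value was read as known to 0.5 cycle on either side. The reference genes B2m, Gusb and Hsp90ab1 were not whole in the same sample, at 23.82, 25.66 and 25.3. Why the gene wells alone were whole was not tested, so the 0.5 cycle is an assumption. The only repeated wells below the ceiling were the 3 reverse transcription controls (RTC) of the control sample, and the difference of 2 such wells had an SD of 0.530 cycles, called the well-to-well SD below. The 3 positive PCR control wells were at 35 in both samples. None of the 5 hepatocyte and hepatoma markers looked for (Alb, Afp, Apoa1, Hnf4a and Ttr) is among the genes of the panel. The liver identity of the cells could therefore not be checked. Of the 4 adipocyte markers looked for, 3 are on the panel. In untreated cells their Ct was 27.37 for Adipoq, 29.9 for Fabp4 and 33.89 for Lep. Why fat cell genes gave such signals in a hepatoma line was not tested. The deposited tables write the symbols in the mouse style and list Gusb, Hsp90ab1 and a genomic DNA control named MGDC, names in use on the manufacturer's mouse plates, whereas the labels name the human plate. Which plate was run was not tested.

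Each of the 6 KLF and GATA wells crossed the threshold before the ceiling in both samples. Over the panel this held for 59 of 84 genes (70.2%). Fold changes of these 6 genes are therefore measured values and not bounds. In the control, their Ct ran from 28.47 to 32.46 with a median of 30.1, and in treated cells from 29 to 33 with a median of 31.5. Treated cells gave the later Ct for all 6 genes, by 0.18 to 2.84 cycles. Fold changes are given relative to the mean of the reference genes B2m, Gusb and Hsp90ab1, the reference of the deposited values, and the direction of each of the 6 genes flips under at least 1 other reference, as given at the end.

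**Figure D1:**
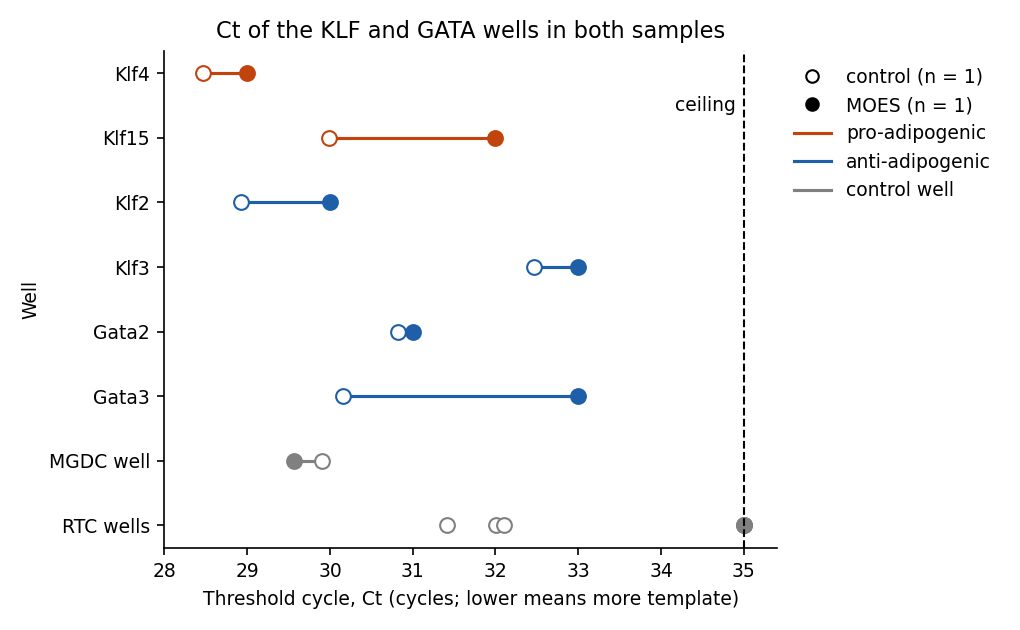
Threshold cycle (horizontal axis, cycles) of each KLF and GATA well and of the MGDC and RTC control wells, with an open circle for the control sample and a filled circle for the MOES sample (1 sample each). Every member lies to the left of the ceiling at 35, and the lines are longest for Gata3 (30.16 to 33) and Klf15 (29.99 to 32) and shortest for Gata2 (30.82 to 31).

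Of the pro-adipogenic factors, Klf4 was the earliest of the 6 wells in either sample. Its Ct was 28.47 in untreated cells and 29 in treated cells. The deposited level of Klf4, relative to the reference genes, was 0.0849 in untreated cells and 0.0594 in treated cells. This is a fold change of 0.697, a log2 difference of -0.52, about the size of the well-to-well SD. A shift of 0.5 cycle on either side of the MOES value gives fold changes from 0.493 to 0.986.

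Klf15, the later-acting pro-adipogenic factor, had a Ct of 29.99 in untreated cells and 32 in treated cells. Its deposited level relative to the reference genes was 0.0297 and 0.00743 in the same order. The level in treated cells was 4-fold lower, a log2 difference of -2.0, or 3.77 times the well-to-well SD. With a precision of 0.5 cycle the fold change of Klf15 lay between 0.177 and 0.354, below 0.5 throughout. The treated well of Klf15 was among the 21 genes recorded at exactly 32.

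Of the anti-adipogenic KLF factors, Klf2, which is best known from blood vessel lining and lymphocytes, had a Ct of 28.93 in untreated cells and 30 in treated cells. Its deposited level was 0.0619 in untreated cells and 0.0297 in treated cells, a fold change of 0.480. This value lies just below the limit of 0.5 that the study's methods set for downregulation. The log2 difference of -1.06 was 2.00 times the well-to-well SD, and 0.5 cycle on either side gives fold changes of 0.339 and 0.678, which lie on opposite sides of that limit.

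Klf3, a repressor that works through the corepressor CtBP, was the latest of the 6 wells in untreated cells, at 32.46, and was at 33 in treated cells. Its deposited level was 0.00534 in untreated cells and 0.00371 in treated cells. The fold change was 0.693, a log2 difference of -0.53, which differed from that of Klf4 by 0.01. With the control well 2.54 cycles under the ceiling, the largest decrease that could have been measured for Klf3 was 5.78-fold, against 91.8-fold for Klf4.

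With Ct as deposited, the GATA factors differed most from each other. Gata2, a factor of blood stem cells and of fat cell precursors, had a Ct of 30.82 in untreated cells and 31 in treated cells. Its deposited level was 0.0167 in untreated cells and 0.0149 in treated cells, a fold change of 0.889. The log2 difference of -0.17 was 0.320 of the well-to-well SD, and 0.5 cycle on either side gives fold changes from 0.629 to 1.26, that is, on both sides of no change.

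Gata3, known from T cells and breast epithelium as well as from fat cell precursors, had a Ct of 30.16 in untreated cells and 33 in treated cells. Its deposited level was 0.0264 in untreated cells and 0.00371 in treated cells. The level of Gata3 was 7.11-fold lower in treated cells, a log2 difference of -2.83 or 5.33 times the well-to-well SD, and the range given by 0.5 cycle was 5.03-fold to 10.1-fold lower. With Ct as deposited, Gata3 was the lowest of the 6 members and Gata2 the highest. The wells of the GATA genes are neighbours on the plate, C09 and C10.

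With this reference and the limits of the study's methods, 3 of the 6 factors (Gata3, Klf15 and Klf2) had a fold change below 0.5, where 67.9% of all 84 genes did. None of the 6 was above 1.5, where 8.33% of all genes were. Klf3, Klf4 and Gata2 lay between the limits. Of the 3 calls, those of Gata3 and Klf15 were more than 2 well-to-well SDs from no change. The third, Klf2, was at about 2 SD, and an SD from 3 wells is too imprecise to place it on either side. This SD describes the spread between wells of untreated cells and holds no technical difference between the samples. The same RTC wells had log2 differences of -2.89 or lower between the samples, beyond the -2.83 of Gata3. With the MOES wells 0.5 cycle later Klf3 and Klf4 were below 0.5 too, as were 72.6% of all genes, and with them 0.5 cycle earlier Klf2 was not, where 56.0% of all genes were below 0.5. A lower level in the whole culture can come from fewer cells with the transcript or from less of it per cell, and these cannot be told apart here.

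The fold changes of the pro-adipogenic and anti-adipogenic factors overlapped. The median log2 fold change was -1.26 over the 2 pro-adipogenic factors and -0.80 over the 4 anti-adipogenic factors, a difference of -0.47. Both pro-adipogenic values, -0.52 for Klf4 and -2.0 for Klf15, lay inside the range of the anti-adipogenic factors, from -2.83 for Gata3 to -0.17 for Gata2. One of the 2 pro-adipogenic and 2 of the 4 anti-adipogenic factors were below 0.5. By family, the median was -0.80 over the 4 KLF factors and -1.5 over the 2 GATA factors, and the GATA median is the midpoint of 2 distant values.

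Differences between members do not depend on the reference genes, since a reference adds the same amount to each gene. With Ct as deposited, 5 of the 15 pairs of members differed by more than 1.5 on the log2 scale, which is 2 SD of such a difference from the RTC wells. Of these 5 pairs, 4 involved Gata3. The widest gap was that of the GATA genes, where Gata2 stood 2.66 above Gata3 on the log2 scale, a 6.32-fold difference in fold change. Gata3 was also lower than Klf4 by 2.31, than Klf3 by 2.30 and than Klf2 by 1.77. The fifth pair was Gata2 and Klf15, which differed by 1.83. Between the pro-adipogenic factors, Klf4 stood 1.48 above Klf15, about 2 SD, and Klf15 and Gata3 differed by 0.83. With Ct above 32 set to 32, Gata3 was at -1.83, above Klf15 at -2.0, and Klf3 was the highest at 0.01. The order of the members, the widest gap and the part of Gata3 in these pairs thus rest on wells later than 32.

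Within a sample, the wells can be ordered by Ct, although a Ct also depends on the primers of each gene and is no measure of transcript number between genes. In the control the order was Klf4, Klf2, Klf15, Gata3, Gata2 and Klf3. Of these neighbours, only Gata2 and Klf3 were more than 2 well-to-well SDs apart, by 1.64 cycles. In the MOES sample the order was Klf4, Klf2, Gata2, Klf15 and then Gata3 and Klf3 together at 33. No neighbours in that order were more than 1 cycle apart, which is within 2 SD. Gata2, later than Gata3 by 0.66 cycles in untreated cells, was thus 2 cycles earlier than Gata3 in treated cells.

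The median of the 6 factors lay above that of the panel with Ct as deposited, but not with Ct above 32 set to 32, where it was -0.79 against -0.69 on the log2 scale. With Ct as deposited, their median log2 fold change was -0.80, compared with -1.78 over all 84 genes and -1.75 over the 53 other genes measured below the ceiling in both samples. Among these 53 genes, 42 (79.2%) had a lower fold change than Gata2, 38 (71.7%) were lower than Klf4 and likewise than Klf3, and 35 (66.0%) were lower than Klf2. Klf15 had 22 (41.5%) and Gata3 had 12 (22.6%) of them below it. Gata2, Klf4, Klf3 and Klf2 thus lay above the middle of the measured genes, and Klf15 and Gata3 below it.

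**Figure D2:**
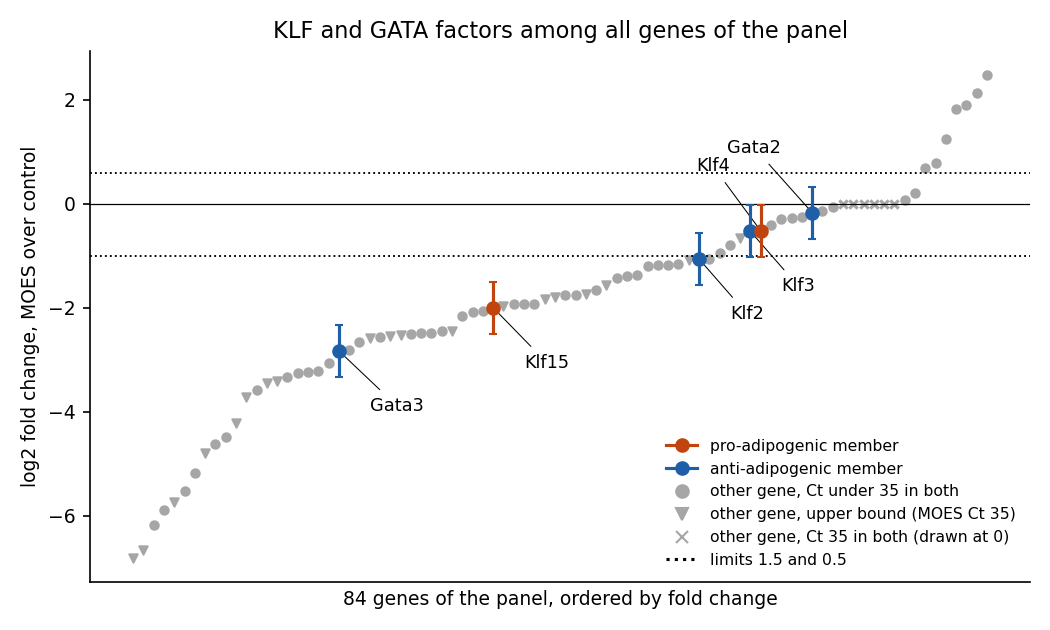
Log2 fold change of the MOES sample over the control (vertical axis) for the 84 genes in order of their value, with the pro-adipogenic members in red, the anti-adipogenic members in blue, bars of 0.5 cycle for the precision of the MOES Ct, and the limits 1.5 and 0.5 dotted. With B2m, Gusb and Hsp90ab1 as reference, Gata3 at -2.83 and Klf15 at -2.0 lie well below the lower limit, the bar of Klf2 crosses it, and the bar of Gata2 crosses 0; another reference moves all points up or down together.

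The genes with the most similar Ct in the 2 samples were found by the distance between the pairs of Ct values. Klf15 had close neighbours, namely Fgf2, a growth factor of fat cell precursors, at a distance of 0.060 cycles and Ncoa2, a nuclear receptor coactivator, at 0.070 cycles. The fold changes of these genes were 0.240 and 0.262. Ncoa2 and Fgf2 were also nearest to Gata3, but at 1.00 and 1.03 cycles. Klf4 was closest to Ddit3, which encodes the C/EBP inhibitor CHOP, at 0.460 cycles, and then to Retn, which encodes resistin, at 0.860.

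The remaining members lay farther from their nearest genes than Klf15 did. Klf3 was nearest to Lipe, which encodes hormone-sensitive lipase, at 0.530 cycles and to the corepressor gene Runx1t1 at 0.600. Klf2 was nearest to Cdk4, a cell cycle kinase, at 0.800 and to Irs1, an adaptor of the insulin receptor, at 0.860. Gata2 was nearest to the kinase gene Src at 0.850 and to Bmp4 at 1.00. A distance rests on 2 samples and on whole cycles in one of them, and it describes these wells only.

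The genes known to be regulated by these factors or to act with them were Pparg, Cebpa, Cebpb, Egr2 and Slc2a4. Of these 5, 4 were below 0.5, beside 67.9% of all genes, and none was above 1.5. Their median log2 fold change was -3.25, against -1.78 for the panel. Pparg, which KLF2 and the GATA factors repress and KLF15 promotes, went from a Ct of 19.82 to 25, a level 36-fold lower. Its well in untreated cells was earlier than those of B2m, Hsp90ab1 and Gusb, at 23.82, 25.28 and 25.65. Whether that well reports the Pparg level of HepG2 cells was not tested. Cebpb, a target of KLF4, went from 28.74 to 32 and was 9.51-fold lower. Egr2, the partner of KLF4, went from 28.18 to the ceiling and was at least 112-fold lower if the PCR worked in that well. Slc2a4, which encodes GLUT4, went from 33.42 to the ceiling, a level at least 2.97-fold lower on the same condition. Cebpa, a target of KLF3, had a Ct of 31.2 and 32 and a fold change of 0.578.

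Other pro-adipogenic transcription factors of the panel spread more widely than the KLF and GATA factors. In this list of 7, which shares Pparg, Cebpa, Cebpb and Egr2 with the one above, 4 were below 0.5 and 2 were above 1.5, beside 67.9% and 8.33% of all genes, with a median log2 fold change of -2.55, which is the bound of Srebf1. Cebpd, an early inducer of adipogenesis, had a fold change of 5.58 and Creb1, which responds to cyclic AMP, of 3.56. Srebf1, a regulator of lipid synthesis, went from 32.44 to the ceiling and was at least 5.86-fold lower if the PCR worked in that well.

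In the list of 8 other anti-adipogenic transcription factors, 6 were below 0.5 and none above 1.5, beside the same 67.9% and 8.33% of all genes, with a median of -2.34 that takes Hes1 at its bound. Of these 8, Tsc22d3 was at least 102-fold lower, Twist1 at least 53.4-fold lower and Hes1, a target of Notch signalling, at least 5.74-fold lower. Each had its MOES well at the ceiling, so these bounds hold only if the PCR worked in those wells. Tcf7l2, a mediator of WNT signalling, was 9.32-fold lower and Foxo1, which insulin signalling holds out of the nucleus, 4.47-fold lower. Foxc2 was 2.68-fold lower, and Ddit3 and Runx1t1 had fold changes of 0.959 and 1.05. With Ct as deposited, the range of the 6 KLF and GATA factors, from -2.83 to -0.17 on the log2 scale, lay inside that of either list. Each list then had a lower median. The pro-adipogenic list median is the bound of Srebf1, and the anti-adipogenic one takes Hes1 at its bound. Both genes were later than 32 in untreated cells too, at 32.44 and 32.47. Whether the list medians stay lower with Ct above 32 set to 32 was not tested.

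**Figure D3:**
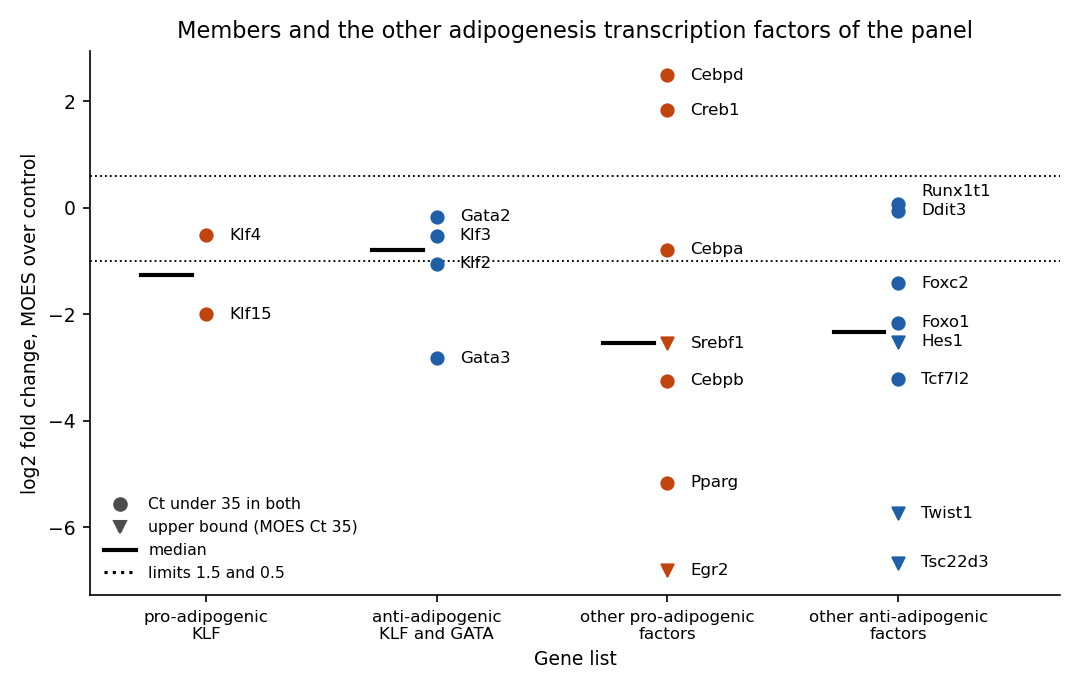
Log2 fold change of the MOES sample over the control (vertical axis) for the pro-adipogenic KLF factors, the anti-adipogenic KLF and GATA factors, and the 7 other pro-adipogenic and 8 other anti-adipogenic transcription factors of the panel. Triangles are upper bounds from MOES wells at 35 and thick lines are medians. With Ct as deposited and B2m, Gusb and Hsp90ab1 as reference, the medians were -1.26, -0.80, -2.55 and -2.34 from left to right.

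Beside these genes, the RTC wells differed between the samples, and the MGDC well did so by less than the well-to-well SD. The 3 RTC wells are meant to test the reverse transcription step with a synthetic RNA. The study's methods mention no such RNA, and what these wells read was not tested. The RTC wells lay between 31.41 and 32.1 in untreated cells and all reached 35 in treated cells. Relative to B2m, Gusb and Hsp90ab1, their log2 differences were at most -3.58, -2.98 and -2.89. Each was thus a larger decrease than that of any of the 6 factors, of which Gata3 was the lowest at -2.83. The MGDC well, which reports genomic DNA, had a Ct of 29.9 in untreated cells and 29.56 in treated cells. It was earlier than 4 of the 6 KLF and GATA wells in untreated cells (Klf15, Gata3, Gata2 and Klf3) and earlier than 5 of the 6 in treated cells, where Klf4 alone preceded it. The part of reverse transcription or of genomic DNA in the values of these genes was not tested.

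The direction of the 6 factors rested on the reference genes. B2m, Gusb and Hsp90ab1 differed by at most 0.020 cycles between the samples, whereas Actb went from 34.05 and Gapdh from 28.46 to the ceiling. A match of 0.020 cycles is far closer than the well-to-well SD of 0.530 cycles, and the reason for it was not tested. With the mean of all 5 reference genes, where 23.8% of all genes were above 1.5 and 33.3% below 0.5, Gata2, Klf4 and Klf3 were above 1.5, with log2 fold changes of 1.32, 0.97 and 0.96, Klf2 was at 0.43, Klf15 at -0.51 and Gata3 at -1.34. With the median Ct over the 84 genes in place of reference genes, the values were within 0.01 of these. Against Actb alone, Gata3 at -1.89 and Klf15 at -1.06 were still below 0.5, and Gata2 at 0.77 was above 1.5, where 44.0% and 17.9% of all genes were. Against Gapdh alone all 6 were above 1.5, as were 89.3% of all genes, from 3.7 for Gata3 to 6.36 for Gata2 on the log2 scale. Since Actb and Gapdh are only known to have a Ct of at least 35 in treated cells, values that include them are minima. A reference adds the same amount to each gene. By construction, Gata3 was therefore the lowest, Klf15 the next and Gata2 the highest under each of these references.

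**Figure D4:**
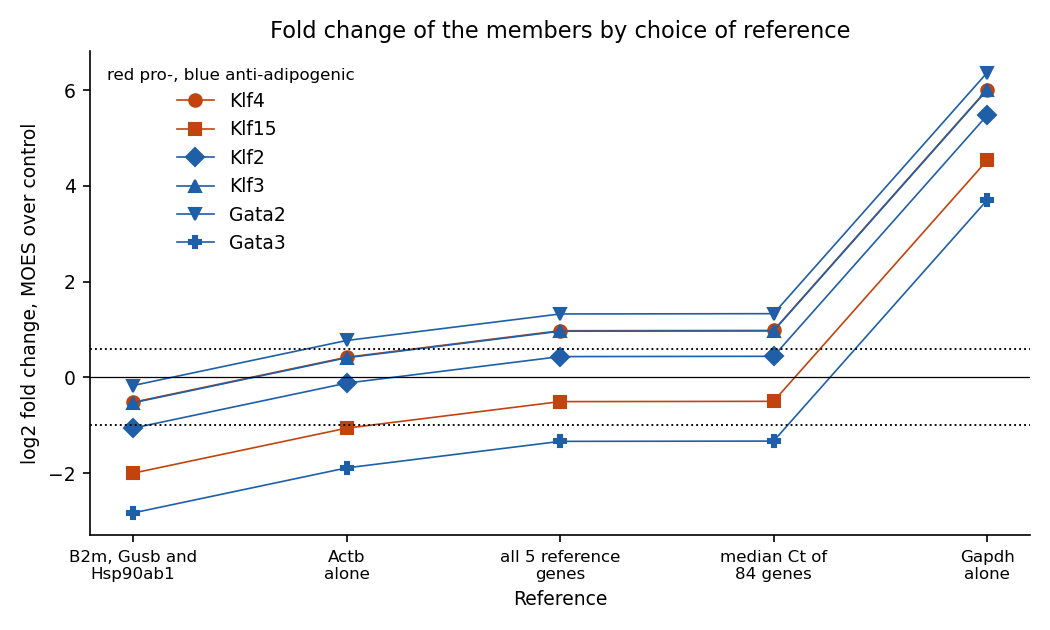
Log2 fold change of the MOES sample over the control (vertical axis) for each member under 5 choices of reference (horizontal axis), with pro-adipogenic members in red, anti-adipogenic members in blue and the limits 1.5 and 0.5 dotted; values with Actb or Gapdh are minima. By construction, the lines run in parallel and the order of the members is the same throughout. Gata2 passes from -0.17 with the reference of the deposited values to 6.36 with Gapdh alone.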

How the data were processed

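Per the labels, cDNA from the RNA of both HepG2 samples was amplified with SYBR Green on an array of 96 wells, and the values came from web software of the manufacturer. The authors deposited Ct, delta Ct (Ct minus the mean Ct of reference genes, a log2 scale that runs opposite to the level) and its power of 2, a ratio to the reference genes, and Ct values carry no read depth. The headers call the values averages over a number of wells not given in the sources used here, and the SD columns hold no numbers. Another table holds the authors' fold changes and was not used. Columns were matched to samples by name, Group 1 being the group other than the control.

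Deposited delta Ct matched Ct minus the mean of B2m, Gusb and Hsp90ab1 to within 0.0057 cycles, the closest of 31 subsets of the 5 reference genes. Log2 fold changes were the delta Ct of the control minus that of MOES, computed from Ct, with the limits 1.5 and 0.5 of the study's methods. A MOES Ct of 35 was taken as an upper bound, which assumes that the PCR worked in that well, and was entered as such in medians. Genes at 35 in both samples were entered as no change. The SD between wells is that of the RTC wells of the control, 0.375 cycles, times the square root of 2, or times 2 for differences between fold changes. It rests on 3 wells and is itself imprecise, and it describes late wells of 1 plate and no biological variation. The genes named are the members, 3 lists, the control wells and the 2 genes nearest to each member. Members and lists were chosen with earlier results of these data known. Alternatives were 7 references, 2 treatments of late wells, 2 deposited scales, 3 roundings and 3 pairs of limits. All 6 members matched human symbols of RefSeq (GRCh38.p14) when case was ignored. Computations used Python 3.11.15 and numpy 2.4.6. They were run on simulated plates without well noise or rounding, which checks the arithmetic only.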

Additional observations from a re-analysis of the deposited data

Results flagged for a closer look

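The MGDC well reports genomic DNA and enters no fold change of the KLF and GATA factors, although its Ct is set beside theirs above. Its signal was higher with MOES than without, by 0.35 on the log2 scale relative to B2m, Gusb and Hsp90ab1, which is less than the well-to-well SD of 0.530 cycles.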

How the results depend on the processing

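No paired analysis was possible because there was 1 sample in each group. The mean of all 5 reference genes gave 3 members above 1.5 and 1 below 0.5, with medians of 0.70 over the members, 0.23 over the pro-adipogenic and 0.70 over the anti-adipogenic factors, and the median Ct of the genes gave 3, 1, 0.71, 0.24 and 0.71 in the same order, where 23.8% of all genes were above and 33.3% below with either. Klf2 was then at 0.43 and 0.44. Actb alone gave 1 member above, beside 17.9% of all genes, with medians of 0.15, -0.32 and 0.15. Gapdh alone gave 6 above, beside 89.3% of all genes, and 0 below, where the medians were 5.74, 5.27 and 5.74, Klf2 at 5.47, Klf15 at 4.53 and Gata3 at 3.7. These shifts are by construction the same for every member, and it was not tested which reference genes kept their level. Raising the MOES gene wells by 0.5 cycle gave 5 members below 0.5, all but Gata2, beside 72.6% of all genes, and lowering them by 0.5 cycle gave 2, without Klf2, beside 56.0%. Setting Ct above 32 to 32 put Klf3 at 0.01 and Gata3 at -1.83, by construction, and the members' median at -0.79, below the -0.69 of the panel. Klf15 at -2.0 was then the lowest member and Klf3 the highest. B2m, Gusb or Hsp90ab1 alone, the deposited delta Ct and levels, the removal of genes at 35 and the rounding of the control kept each group median within 1 well-to-well SD and the count below 0.5 within 1.5 times. Limits of 2 SD gave 2 members below, beside 65.5% of all genes. Of the alternatives that give these differences, the pro-adipogenic minus the anti-adipogenic median ran from -0.65 to -0.47, and the KLF minus the GATA median from 0.21 to 0.71, with both extremes at -0.65 and 0.21 from setting Ct above 32 to 32.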
